A study of Homo sapiens with 6 samples.

Results

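NCAM2 and MIR99AHG are 2 long genes on the plus strand of chromosome 21, and the peaks that chromatin immunoprecipitation with sequencing (ChIP-seq) gave over them are described here. The genes were chosen from values of these same data: the Pol II list after BMH-21 held a large group of peaks at NCAM2 and its widest peak at MIR99AHG. Values of that list over the genes are therefore a description and support nothing. On hg19, NCAM2 was taken as 22370 to 22913 kb and MIR99AHG (also LINC00478) as 17442 to 17983 kb, each with 20 kb on both sides, which made windows of 583 and 581 kb. Gene bounds are to the nearest kb, and every distance below is from such a start. The windows held 327 of the 84817 peaks in the 4 deposited lists, namely 59 of 42547 Pol I peaks in DMSO, 9 of 1932 Pol I peaks after BMH-21, 29 of 28798 Pol II peaks in DMSO and 230 of 11540 Pol II peaks after BMH-21.

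The cells were LNCaP, an established androgen-responsive human prostate cancer line, kept for 6 h with the vehicle DMSO or with 1 µM BMH-21, a DNA intercalator known as an inhibitor of RNA polymerase I (Pol I). Immunoprecipitation used an antibody to Pol I or an antibody to the form of RNA polymerase II that carries phosphate on serine 5 of its C-terminal repeats, called Pol II below, so more polymerase and more phosphate per polymerase cannot be told apart. Each combination of antibody and treatment had 1 library, so differences between treatments have no replicate error and no test, and the 2 input libraries were left unused. The identity of the line was not checked, as peak lists hold no expression values. The number of reads per library is unknown, and each peak's score is the authors' own value, used only to describe or rank peaks within its list. An empty stretch may still hold the polymerase, since no list has a score below 50 and the lists leave out peaks that had been numbered.

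NCAM2 encodes neural cell adhesion molecule 2, a membrane protein of the immunoglobulin superfamily best known from the nervous system, where it takes part in the adhesion and sorting of axons. MIR99AHG is a long noncoding RNA gene, and its transcript is the host of a cluster of microRNAs that are cut from introns. Pol II becomes phosphorylated at serine 5 around initiation, and over most genes this form is found mainly near the start. Pol I transcribes the ribosomal RNA precursor and is not the enzyme of either gene.

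RefSeq's table (GRCh38) places 3 microRNA genes inside MIR99AHG: MIR99A, MIRLET7C and MIR125B2. Their main mature arms are shown because they are the small RNA products of the gene under the widest peak. They are written 5′ to 3′ with the seed, bases 2 to 8, in capitals.
miR-99a-5p: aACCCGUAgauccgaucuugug
let-7c-5p: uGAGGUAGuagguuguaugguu
miR-125b-5p: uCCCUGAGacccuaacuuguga
The 3 seeds differ from each other. The let-7c-5p seed is found in 10 other mature names of the table, among them let-7a-5p and miR-98-5p. The miR-99a-5p seed is shared with miR-100-5p and miR-99b-5p, and the miR-125b-5p seed with miR-125a-5p and miR-4319. The table is on another build than the peaks, so the microRNAs were not placed relative to any peak.

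After BMH-21, listed Pol II peaks covered much of NCAM2 and a long part of MIR99AHG. In NCAM2, 222 peaks lay in the gene and 1 in the 20 kb past its end, and 42.9% of the gene was under peaks. In MIR99AHG, 7 peaks lay in the gene and 25.1% of it was under peaks. In DMSO, listed Pol II peaks covered 3.52% of NCAM2 (23 peaks) and 1.07% of MIR99AHG (6 peaks). DMSO Pol I peaks covered 2.35% of NCAM2 (21 peaks) and 4.44% of MIR99AHG (38 peaks), and BMH-21 Pol I peaks 0% (0 peaks) and 0.499% (9 peaks). The order of covered share was thus Pol II after BMH-21, Pol II in DMSO, Pol I in DMSO and Pol I after BMH-21 in NCAM2. In MIR99AHG, Pol I in DMSO stood before Pol II in DMSO.

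**Figure D1:**
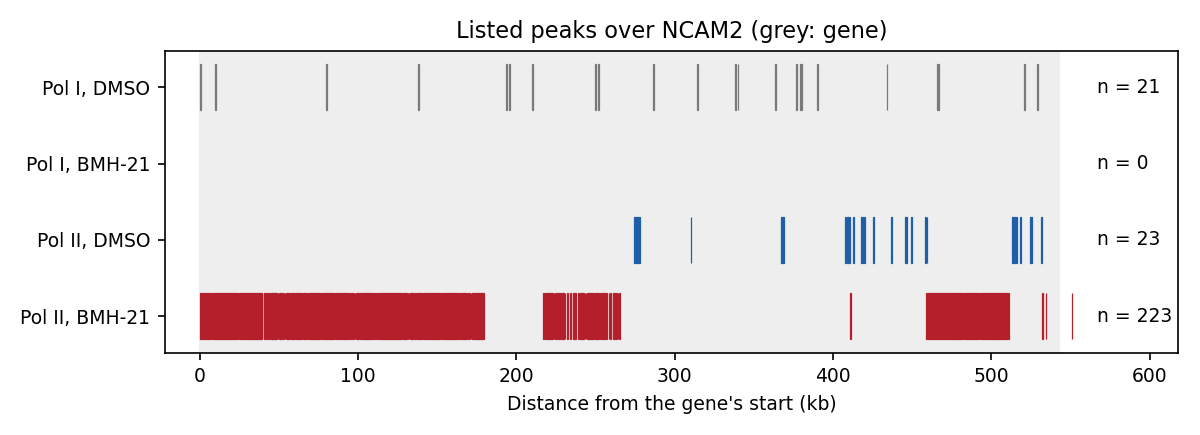
Listed peaks over NCAM2 by distance from the gene's start (kb), 1 row per list, each bar drawn from a peak's start to its end and the gene shaded grey. The 223 Pol II peaks after BMH-21 form 3 long groups with gaps between them, and the 23 DMSO Pol II peaks begin 274.21 kb into the gene.

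Of all 10 kb bins of the genome, 0.0675% had at least 50% of their length under BMH-21 Pol II peaks, whereas 26 of the 54 bins inside NCAM2 (48.1%) and 14 of the 53 bins inside MIR99AHG (26.4%) were so covered. These 40 bins were 19.1% of the 209 such bins in the genome, and chromosome 21 had 0 others. Bins at least 50% under peaks of the other lists numbered 0 in both genes, against 0.0239% of all bins for DMSO Pol II, 0.00162% for DMSO Pol I and 0.00614% for BMH-21 Pol I. Since the genes were chosen by the BMH-21 Pol II list, nothing is read from the first comparison.

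Bins with any listed peak were also more frequent in these genes than over the genome in several other lists. DMSO Pol I peaks touched 20 of 54 bins in NCAM2 (37.0%) and 26 of 53 in MIR99AHG (49.1%), against 12.3% of all bins. DMSO Pol II peaks touched 12 bins in NCAM2 (22.2%) and 4 in MIR99AHG (7.55%), against 6.50%, so that MIR99AHG was near the background. BMH-21 Pol I peaks touched 0 bins in NCAM2 and 7 in MIR99AHG (13.2%), against 0.532%, and BMH-21 Pol II peaks touched 61.1% and 34.0%, against 2.83%. Bins are not replicates, and these shares were not tested.

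In NCAM2, the BMH-21 Pol II peaks began at the gene's start. The first, 22370429 to 22377281, lay 0.43 kb past the start, was 6853 bp wide and had a score of 3100, the highest of the gene. Upstream of it no Pol II peak after BMH-21 was listed for 1719 kb, back to a peak of 257 bp that ends at 20651741 (score 58.08). Only 5 running numbers, which each list gives its peaks in order of position, were skipped in that stretch. The last listed peak in the gene was at 22904251 to 22904507 (score 59.67), 534.51 kb from the start, and 1 peak of 234 bp (score 51) lay 8.01 kb past the end. The next listed peak downstream was at 24760677, 1828 kb beyond the window, with 8 numbers skipped before it. The peaks of this list were thus bounded on both sides at nearly the bounds of the gene.

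Joining peaks with gaps of at most 10 kb, and keeping groups of 10 or more, gave 3 runs in NCAM2 that held 219 of its peaks. The first run went from 22370429 to 22549929, from 0.43 to 179.93 kb past the start, with 151 peaks and 84.3% of its length under peaks. The second, 22587153 to 22635805 (217.15 to 265.81 kb), had 43 peaks and 66.0% covered. The third, 22828965 to 22880900 (458.96 to 510.90 kb), had 25 peaks and 93.3% covered. The third run lies near the 3′ end of the gene and was the most completely covered of them.

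Within the first run, coverage was high from end to end. In pieces of 20 kb from the start it was 95.4% in the first piece, between 63.2% and 90.1% in the next 7, and 80.8% in the piece from 160 to 180 kb. The median gap between neighbouring peaks was 112.5 bp and the longest 851 bp. The median peak width was 2328 bp in the first 20 kb, 706 bp in the next 20 kb and 416 bp from 40 to 60 kb, and it was between 579 and 1092.5 bp in the later pieces. The widest peaks and the highest scores stood in the first and the third run. Beside the first peak, these were 22831499 to 22848264 (16766 bp, score 2176.76) and 22852583 to 22858535 (5953 bp, score 2699.06), both in the last run. Of the 222 peaks in the gene, 7 had a score of 1000 or more, 153 of 100 or more and 69 less than 100, with a median of 146.45. Width and score rose together across these peaks (Spearman's rho 0.96, n = 222, peaks of 1 library).

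Between the runs the list was nearly empty, but numbers were skipped there. The first run used 84.1 numbers per 100 kb with 0 skipped, and the second 88.4 with 0 skipped. In the 37.2 kb between them, 32 numbers were skipped and 0 peaks listed, 86.0 numbers per 100 kb. In the 193 kb between the second and the third run, 1 peak was listed, at 22780824 to 22781193 (score 81.2), and 139 numbers were skipped, 72.5 numbers per 100 kb. The third run, with its wide peaks, used 48.1 per 100 kb with 0 skipped. From the first to the last listed peak of NCAM2 there were 402 numbers, of which 222 (55.2%, exact Clopper-Pearson 95% interval 50.2 to 60.2, counting error only) were listed. This interval and the later ones for listed shares treat the numbers of 1 library as independent, which neighbouring numbers need not be. Here they were not, as the runs had 0 skipped numbers and the gaps almost only skipped ones. The intervals are thus no measure of error between libraries. The 402 numbers came to 753 per Mb between listed peaks of the gene, and numbers came to 183 per Mb over the 2.27 Mb between the nearest listed peaks outside it. Chromosome 21 had 29.7 per Mb with both genes and 17.1 without those outer spans, and the genome 16.7. Numbers were thus skipped in both gaps between the runs. In the second gap the 1 listed peak had number 29673, against 29566 at the end of the second run and 29707 at the start of the third. More numbers were therefore skipped before that peak than after it. Closer places of the unlisted peaks in either gap are not known.

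**Figure D2:**
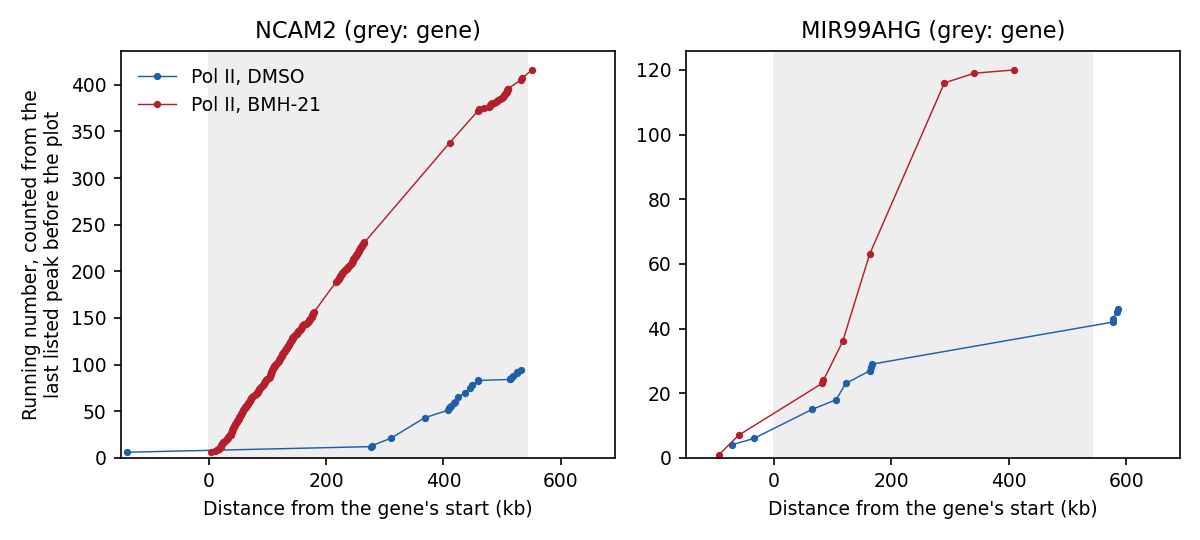
Running number of each listed Pol II peak (vertical axis, counted from the last listed peak before the plot) against the distance of its midpoint from the gene's start (kb), for NCAM2 at left and MIR99AHG at right, with DMSO in blue, BMH-21 in red and the gene shaded. In NCAM2 the BMH-21 numbers are higher after each gap between the runs than before it, and the DMSO numbers stay almost flat until the first DMSO peak at 274.21 kb.

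The DMSO Pol II peaks of NCAM2 lay in its 3′ part. The first was at 22644208 to 22647557, 274.21 kb past the start, and it was also the widest (3350 bp) and the highest scored (703.9). The next highest were at 22737489 to 22738806 (score 296.79, 367.49 kb) and 22787588 to 22788753 (score 189.62, 417.59 kb). The last was at 22901419 to 22901932, 531.93 kb past the start, and the median width was 588 bp. None met a Pol II peak of the BMH-21 list. The Pol II lists of the treatments have 0 overlaps over the genome, so this 0 is a property of the lists, and the places of the DMSO peaks between the runs follow in part from it.

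The running numbers also count peaks left out of the list, within bounds set by the nearest listed peaks on either side. Between the DMSO Pol II peak that ends at 22229721 and the first one in NCAM2, a stretch of 414 kb that takes in the first 274 kb of the gene, DMSO numbering allows at most 5 peaks. BMH-21 numbering over the same stretch holds at least 226, of which 194 were listed, and the listed peaks cover 44.2% of it. From the first to the last DMSO Pol II peak of the gene, 258 kb, DMSO used 83 numbers, of which 23 were listed (27.7%, interval 18.4 to 38.6), and BMH-21 used between 59 and 173. DMSO numbers came to 322 per Mb in that part and to 91.2 over the 0.998 Mb between the nearest listed peaks outside the gene. Chromosome 21 had 21.0 with both genes and 18.5 without the outer spans. In the 326 kb after it, DMSO numbering allows at most 3 further peaks. The counts compare 1 library with 1 library, and a number says nothing of the width of its peak.

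Pol I peaks in DMSO were spread along NCAM2 from end to end. There were 21, with widths from 347 to 1513 bp (median 542) and scores from 56.31 to 277.74 (median 105.35). The first, 22370296 to 22370959 (664 bp, score 223), sat at the gene's start and shared 531 bp with the first BMH-21 Pol II peak. The highest scored were at 22619690 to 22620621 (score 277.74, 249.69 kb), 22835497 to 22837009 (score 262.25, 465.50 kb, the widest) and 22760167 to 22760757 (score 245.77, 390.17 kb). The numbering skipped 14 of 35 numbers between the first and the last. After BMH-21 no Pol I peak was listed in the window, and the nearest were 1043 kb before it and 1592 kb after it. In that stretch of 3.22 Mb, 29 numbers were skipped, so unlisted Pol I peaks in NCAM2 could not be counted.

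Of the 21 DMSO Pol I peaks, 7 were overlapped by 1 bp or more by BMH-21 Pol II peaks and 0 by DMSO Pol II peaks. Over the genome, 2.43% of DMSO Pol I peaks met a BMH-21 Pol II peak and 14.0% a DMSO Pol II peak. In NCAM2 the BMH-21 Pol II peaks cover 42.9% of the gene and the DMSO Pol II peaks 3.52%, and the shares of 33.3% and 0% of the 21 peaks are read beside those, with no test. Of the 7, 4 lay in the first run, counting the peak at the gene's start, and 5 lay wholly under 1 Pol II peak. By segment, DMSO Pol I peaks numbered 2.23 per 100 kb in the first run, 4.11 in the second and 1.93 in the third, against 8.06 between the first and second and 4.66 between the second and the third. These densities rest on 1 to 9 peaks each.

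In MIR99AHG the BMH-21 Pol II coverage came almost wholly from 1 peak. It ran from 17783740 to 17916828, 341.74 to 474.83 kb past the start, was 133 kb wide and had a score of 164.12. It made up 98.1% of the covered length in the window. Without it, 0.448% of the window was under peaks. A peak of 863 bp with the highest score of the gene, 368.76, ended 76 bp before it. The other 5 were narrow: 17523565 to 17523790 (score 79.79), 17526195 to 17526436 (53.76), 17558725 to 17559280 (151.51), 17604722 to 17605127 (86.89) and 17732060 to 17732369 (111.9). No BMH-21 Pol II peak was listed in the first 81.56 kb of the gene, nor in its last 66.2 kb.

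**Figure D3:**
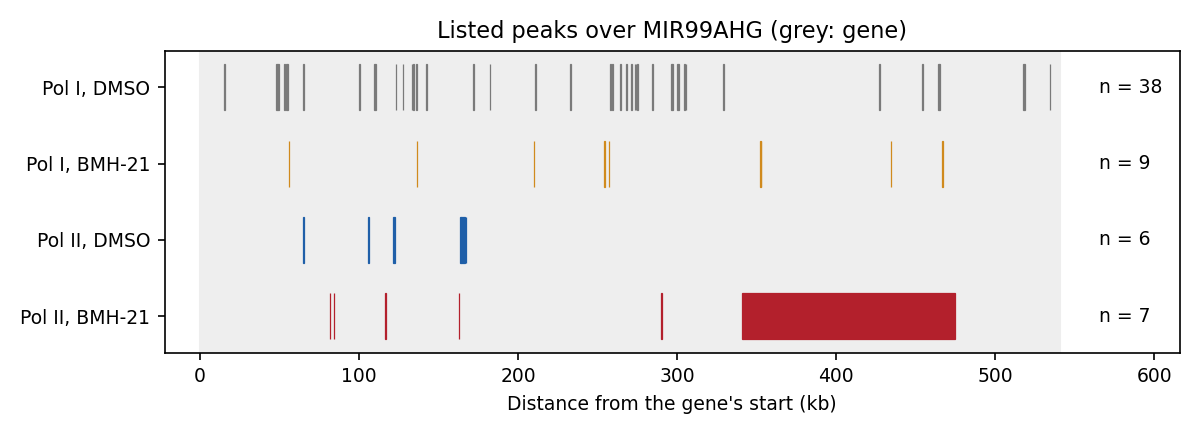
Listed peaks over MIR99AHG by distance from the gene's start (kb), 1 row per list, drawn as for NCAM2. The 6 DMSO Pol II peaks lie between 64.94 and 167.61 kb, and the wide BMH-21 Pol II peak between 341.74 and 474.83 kb.

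The 133 kb peak stands apart from the other peaks of its list in width for its score. The list had 18 peaks over 10 kb, and the next widest was 32.5 kb, 4.10 times narrower. The other 17 had scores from 806.86 to 3100, with a median of 3100. Among the 144 other peaks with a score from 150 to 180, the median width was 631 bp and the widest 6095 bp. The wide peak of NCAM2, 16.8 kb, ranked 7 of the 18 by width and lay within the range of the others in score. How the caller came to join 133 kb into 1 peak is not given in the sources used here, and its coverage was counted in full above.

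**Figure D4:**
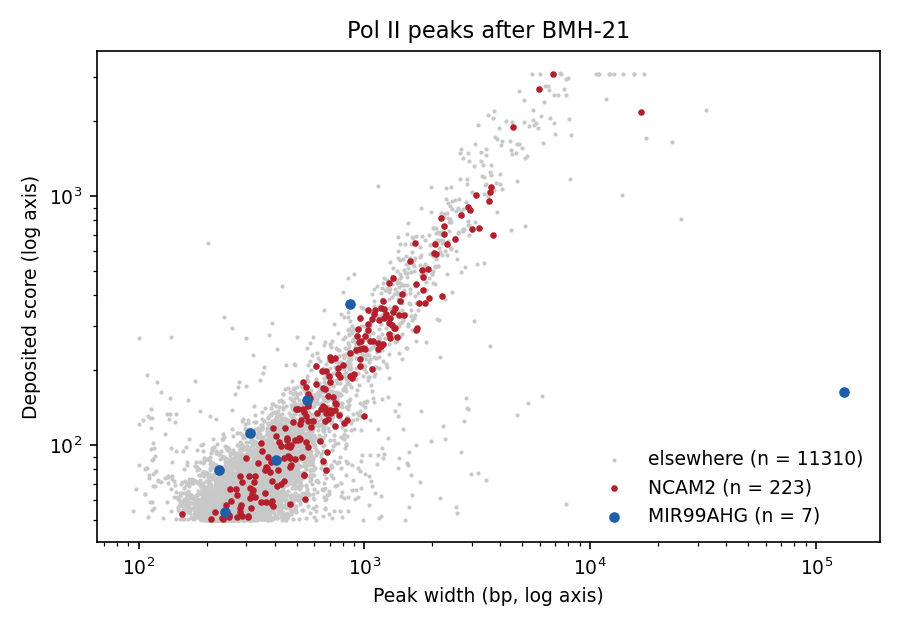
Width (bp, log axis) and deposited score (log axis) of the BMH-21 Pol II peaks, those of the NCAM2 window in red, of the MIR99AHG window in blue and of the rest of the genome in grey. The 133 kb peak of MIR99AHG is the point at the far right, with a score of 164.12, and the NCAM2 peaks follow the band of the rest.

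Running numbers in MIR99AHG were mostly skipped. From the first to the last BMH-21 Pol II peak of the gene there were 98 numbers, of which 7 were listed (7.14%, interval 2.92 to 14.2). The wide peak was the last of the 7, so the 91 skipped numbers lay before it. The next listed peak after it was at 20230406, with 43 numbers skipped over 2314 kb. Numbers came to 249 per Mb from the first to the last listed peak and to 54.8 over the 2.85 Mb between the nearest listed peaks outside the gene. A further 15 numbers were skipped in the 141 kb before the first listed peak, part of which lies outside the gene. The 91 unlisted peaks thus lay between 81.56 and 341.74 kb past the start.

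The DMSO Pol II peaks of MIR99AHG lay in its 5′ part. In order they were at 17506941 to 17507481 (score 74.61), 17547770 to 17548210 (56.53), 17563567 to 17564484 (113.39), 17605523 to 17605959 (61.28), 17606112 to 17609012 (434.99) and 17609069 to 17609612 (55.76). The last 3 adjoin each other at 163.52 to 167.61 kb past the start, and the middle one was the widest, at 2901 bp. From there to the next DMSO Pol II peak at 18018341, a stretch of 409 kb with the whole of the 133 kb peak inside it, DMSO numbering allows at most 12 peaks. Over the same stretch BMH-21 numbering holds at least 5 and at most 100. The limit is wider than in NCAM2, so whether BMH-21 numbered more Pol II peaks than DMSO there was not measurable.

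Pol I peaks were listed in MIR99AHG in both treatments. The 38 DMSO peaks had widths from 253 to 1852 bp (median 529) and scores from 51.15 to 490.12 (median 94.44), with 19 of 57 numbers skipped. The highest scored were at 17496395 to 17497767 (score 490.12, 54.40 kb), 17551795 to 17552569 (461.03, 109.80 kb) and 17489916 to 17491767 (413.46, 47.92 kb, the widest). They numbered 9.36 per 100 kb before the wide Pol II peak, 3.01 under it and 3.02 after it, on 32, 4 and 2 peaks. The 9 BMH-21 Pol I peaks were narrower, from 197 to 447 bp, and 8 of them had a score below 100. The exception was at 17699114 to 17699492, with a score of 142.61. None of them met a DMSO Pol I peak, and the Pol I lists have 0 overlaps between treatments over the genome.

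Under the 133 kb Pol II peak lay 4 DMSO Pol I peaks, with scores from 63.26 to 95.27, and 4 BMH-21 Pol I peaks, at 17794280 to 17794726 (score 68.98), 17794758 to 17795052 (60.39), 17876428 to 17876674 (53.85) and 17908830 to 17909067 (54.22). No other BMH-21 Pol I peak of the window met a Pol II peak of either treatment. In DMSO, 1 Pol I peak, 17507104 to 17507560 (score 54.65), was overlapped by a Pol II peak, with 378 bp shared. That is 2.63% of the 38, against 14.0% of DMSO Pol I peaks over the genome. The wide peak covers 24.6% of the gene, and the overlaps with it are to be read beside that share. For DMSO Pol I, 4 of 38 peaks are 10.5%, against 2.43% over the genome that met the BMH-21 Pol II list. For BMH-21 Pol I, 4 of 9 peaks are 44.4%, against 9.52% over the genome that met the same list.

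**Figure D5:**
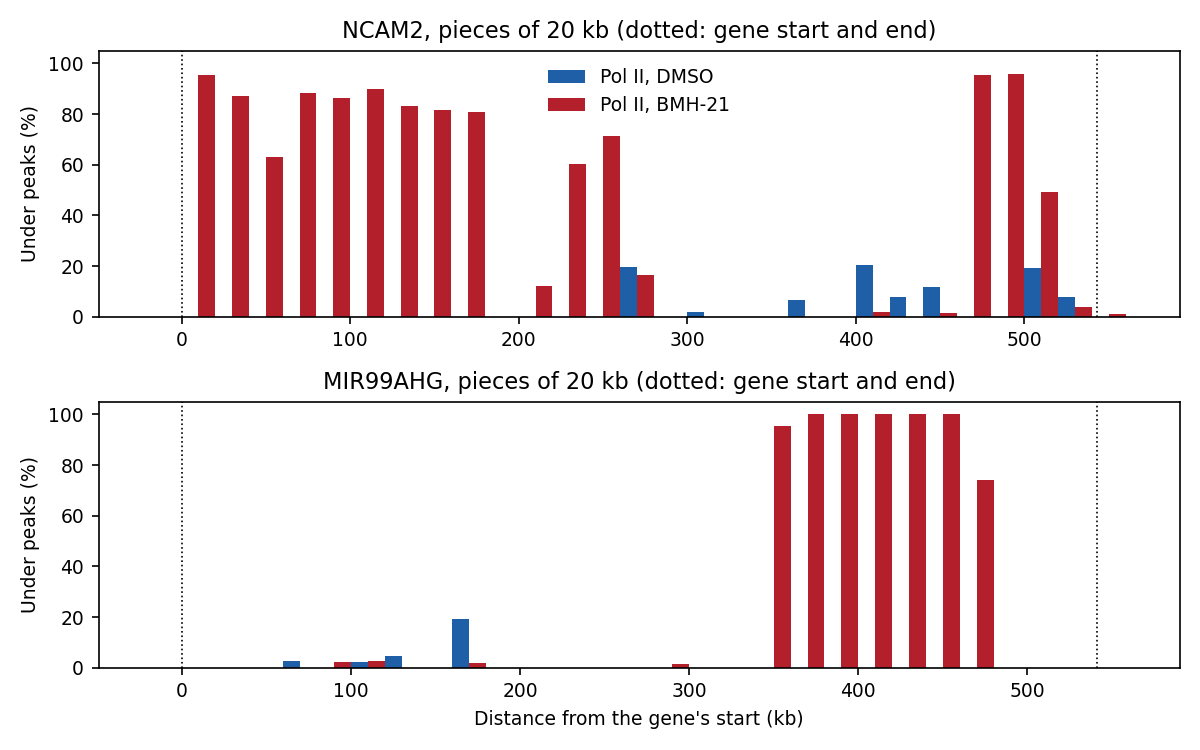
Share of each 20 kb piece under listed Pol II peaks (%, bars from 0), DMSO in blue and BMH-21 in red, by distance from the gene's start (kb), with NCAM2 above and MIR99AHG below. Pieces above 80% lie within the first 180 kb and between 460 and 500 kb of NCAM2 and from 340 to 460 kb of MIR99AHG, and no DMSO piece is above 20.4%.

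The genes thus differed in the place and the make-up of their coverage by listed BMH-21 Pol II peaks. In NCAM2 it began at the start and lay in 3 runs parted by 37.2 and 193 kb. In these partings 32 and 139 numbers were skipped, so they are gaps in the list and may hold unlisted peaks throughout. Each run was made of many peaks with small gaps, most of them short, though the third held 1 of 16.8 kb. In MIR99AHG the long covered part began 340.80 kb into the gene and was 1 peak beside a narrow neighbour. Before that wide peak, 91 numbers were skipped from the first listed peak on. Of the BMH-21 Pol II numbers from the first to the last listed peak, 55.2% were listed in NCAM2 and 7.14% in MIR99AHG. The contrast between many peaks and 1 peak is therefore one of listed peaks only. The DMSO Pol II peaks lay from 274.21 to 531.93 kb in NCAM2, a stretch that also holds the third BMH-21 run, and from 64.94 to 167.61 kb in MIR99AHG. Since the Pol II lists have 0 overlaps between treatments, these places are not independent of the BMH-21 peaks. In DMSO, listed Pol I peaks outnumbered listed Pol II peaks in MIR99AHG, 38 against 6, and not in NCAM2, 21 against 23. The lists left out unlike shares. From the first to the last listed peak, DMSO Pol I used 35 numbers in NCAM2 and Pol II 83. In MIR99AHG these were 57 and 15, and for Pol II at most 35 between the nearest listed peaks outside the gene. No test of these differences could be had with 1 library each.

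Beside the other runs of the same list, the first run of NCAM2 ranked 2 of 54 by number of peaks, 2 by length (179.5 kb) and 12 by covered share. The 3 runs nearest to its 151 peaks were on chromosome 18 at 55823391 to 56074257 (177 peaks, 85.5% covered), on chromosome 14 at 30133304 to 30246048 (92 peaks, 73.4%) and on chromosome 5 at 54708698 to 54831090 (86 peaks, 83.9%). All 4 had a median gap between 107 and 125 bp, 0 skipped numbers, 0 listed DMSO Pol II peaks and 0 listed BMH-21 Pol I peaks. Most of the 54 runs also had 0 BMH-21 Pol I peaks, and such peaks touched only 0.532% of all 10 kb bins. That lack is therefore not particular to these 4. The Pol II lists have 0 overlaps between treatments, so the lack of DMSO Pol II peaks follows in part from how fully the runs are covered. DMSO Pol I peaks numbered 2.23 per 100 kb in the NCAM2 run, against 4.38, 4.43 and 4.90 in the others. These rest on 4, 11, 5 and 6 peaks, and over all 54 runs the density went from 0 to 18.3. The second and the third run of NCAM2 ranked 16 and 21 by peaks and 18 and 6 by covered share. The median run had 19 peaks and 27.6% covered. MIR99AHG touched 0 runs, as its coverage was 1 peak.

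On chromosome 21 the 2 windows held 230 of the 358 BMH-21 Pol II peaks (64.2%, interval 59.0 to 69.2) and 88.7% of the 416 kb that those peaks covered. The windows were chosen from this list, so nothing is read from its high share. The intervals in this paragraph are counting error only. They treat peaks of 1 library as independent, which peaks in runs are not. The windows held 29 of 390 DMSO Pol II peaks (7.44%, interval 5.04 to 10.5), 59 of 571 DMSO Pol I peaks (10.3%, interval 7.96 to 13.1) and 9 of 35 BMH-21 Pol I peaks (25.7%, interval 12.5 to 43.3). The BMH-21 to DMSO ratio of Pol II covered length on the chromosome was 1.77 with the windows and 0.223 without them, and that of peak number went from 0.918 to 0.355. The fall of both follows from the choice of the windows by the BMH-21 Pol II list, so nothing is read from it. For Pol I the ratio of peak number went from 0.0613 to 0.0508. All these ratios rest on listed peaks only, and the lists leave out numbered peaks. Without the outer spans of both genes, chromosome 21 had 17.1 Pol II numbers per Mb after BMH-21 and 18.5 in DMSO. For Pol I, the numbers per Mb there were 5.47 after BMH-21 and 18.2 in DMSO.

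Around the windows, the nearest peaks left out on either side had scores from 51.2 to 115.28 over the 4 lists. Before MIR99AHG they included a DMSO Pol I peak (score 65.2) 11.6 kb outside the window and a DMSO Pol II peak (score 77.55) 13.9 kb outside. A BMH-21 Pol II peak (score 63.92) lay 39.9 kb outside. After it, a DMSO Pol II peak at 18018341 to 18019304 (score 114.74) lay 15.3 kb outside. Before NCAM2 the nearest was a DMSO Pol I peak (score 73.25) 100.1 kb outside, and after it a DMSO Pol I peak (score 115.28) 137 kb outside. The 20 kb before NCAM2 and both flanks of MIR99AHG had 0 peaks in all 4 lists.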

How the data were processed

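The deposited files were 4 lists of ChIP-seq peaks, 1 per ChIP library, with chromosome, start, end, a name with a running number and a score. Per the file headers the score is a p-value, but its values start at 50, so the deposited score is a transformed p-value whose scale is not stated. The build was hg19 and the tools included Bowtie2 2.2.1, deepTools 3.5.4 and CASAVA 1.8.2, per the submitters' processing notes. Peak names begin with MACS, a peak caller. How it was set, whether input was used and how peaks were selected is not given in the sources used here.

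Starts were converted to the first base as a browser shows it. Peaks sharing 1 bp or more with a window were taken, and covered length, position, 10 kb bins (from the first base of each chromosome to its last listed peak) and runs were computed in Python 3.11.15 with NumPy 2.4.6 and SciPy 1.17.1, with plots in matplotlib 3.10.9. Bins inside a gene were those wholly in it. In all lists, running numbers rose with position and 0 peaks overlapped another of the same list, so a number absent between neighbours was counted as skipped. The functions were tested on simulated data. The members, rules and alternatives were chosen with earlier results of these data known. Peaks named are the first, last, 3 widest and 3 highest scored of a list in a gene (all where 6 or fewer), those nearest outside the window, and a few others chosen after their values were seen.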

Additional observations from a re-analysis of the deposited data

How the results depend on the processing

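For 28 results, 112 values under other settings were computed, of which 90 were within a factor of 1.5 of the main value and 22 were not. The 90 include values that were 0 in both settings, as for BMH-21 Pol I in NCAM2, for which no factor exists. Keeping scores of at least 100 left 11 DMSO Pol I peaks (7.97 kb) and 11 DMSO Pol II peaks (12.3 kb) in NCAM2, and in MIR99AHG 16 DMSO Pol I peaks (13.0 kb), 2 DMSO Pol II peaks (3.82 kb), 1 BMH-21 Pol I peak (0.379 kb) and 4 BMH-21 Pol II peaks. At that score, 0 DMSO Pol I and 0 BMH-21 Pol I peaks of MIR99AHG met the BMH-21 Pol II list, and 0 DMSO Pol I peaks the DMSO Pol II list. Within 1000 bp the last count was 2. A width of at least 300 bp left 3 BMH-21 Pol I peaks (1.14 kb) in MIR99AHG. With flanks of 50 kb its window held 11 DMSO Pol II peaks (10.9 kb). NCAM2 bins at least 90% under BMH-21 Pol II peaks were 16.7%. In bins of 5 kb, 0.926% of NCAM2 and 0.935% of MIR99AHG bins were at least 50% under DMSO Pol II peaks. Each of these follows from the peaks or bins that the setting takes in or leaves out. The number of peaks and covered length of BMH-21 Pol II in NCAM2, and its covered length in MIR99AHG, stayed within 1.5 times under each setting. No paired analysis was possible because each group had 1 library. Depth limits all counts, and reads per library are unknown.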
